A study of Mus musculus with 8 samples.

Results

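The genes described here are 6 fibroblast growth factors (FGFs), Fgf5, Fgf7, Fgf10, Fgf18, Fgf21 and Fgf22, and 3 of their receptors, Fgfr1, Fgfr2 and Fgfr3. They were taken by name, and every probe whose accession maps to one of them was used, which gave 14 probes of 9 genes among 55681 probes and 21154 named genes. Whole skin came from female FVB/N mice that carry or lack CD109, a cell surface glycoprotein that binds TGF-β receptors. The 4 groups were CD109+/+ skin treated with DMBA, a carcinogenic hydrocarbon that acts through the Ah receptor, CD109-/- skin treated with DMBA, and CD109+/+ and CD109-/- skin called untreated, with RNA taken 24 h after treatment and 2 arrays in each group. The sample notes give acetone, the solvent of DMBA, for the untreated groups. The age of these mice is not stated with the arrays, and nothing says whether the arrays of a group came from separate animals, and a p-value therefore reflects only how these 8 arrays vary. CD109 is missing from the whole animal in CD109-/- mice, not from one cell type of the skin.

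The hair follicle cycles through growth (anagen), regression (catagen) and rest (telogen), and FGFs help to time these phases. Fgf5 is the best known of them, since mice and other mammals that lack it grow abnormally long hair: it is made in the outer root sheath late in anagen and brings growth to its end. Fgf18 is made in the resting bulge and holds the follicle in telogen. Fgf7 and Fgf10 come from the dermal papilla and the dermis and stimulate the epithelium through the epithelial form of Fgfr2, while Fgf22 is a relative of both that is made in the inner root sheath. Fgf21 is a metabolic hormone, mainly of the liver, that needs the co-receptor β-Klotho. Fgfr1 is the main receptor of the dermis, and Fgfr2 and Fgfr3 are those of the epidermis and the follicle epithelium.

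The signal of Cd109 was checked first. On the log2 scale, relative to the 75th percentile of each array, it was 1.098 and 1.68 after DMBA in CD109+/+ skin and −7.84 and −7.51 in CD109-/- skin. Without DMBA, the 2 arrays labelled CD109+/+ read 2.30 and −6.27, and the 2 labelled CD109-/- read 1.90 and −7.89. The arrays labelled untreated CD109+/+ replicate 2 and untreated CD109-/- replicate 1 thus went against their labels. Results are given with the labels as deposited and with these 2 arrays exchanged. Since the Cd109 values themselves led to the exchange, a p-value given for it describes arrays sorted in that way and cannot count as separate evidence for the genotype. The 4 arrays with a high Cd109 signal (Cd109-high) and the 4 with a low one (Cd109-low) are also compared as a description, with no test.

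The same division of the arrays also divided markers of the growing follicle. Of 18 genes of the hair matrix and inner root sheath that were tested, 18 were higher on every array with a low Cd109 signal than on every array with a high one, against 13% of the 36921 tested probes with a value on every array. The list was chosen with earlier results of these data known, so this count is a description and no test. Krt25, Shh and Dsg4 were well above background on only 4 arrays, the Cd109-low ones, and entered the tests only through these. The defining keratin Krt25 ran from 6.002 to 7.90 on the Cd109-low arrays and from −8.18 to −6.69, not well above background, on the others. Shh, the matrix signal, ran from −1.71 to −0.79 and from −8.25 to −7.63, again not well above background on the latter. The summed level of the list, taken as log2 of its summed linear values, was 9.32 to 10.999 on the Cd109-low arrays and 4.18 to 4.95 on the others. Each result below that follows the Cd109 signal also follows these markers, and their part in the results was not tested. In whole skin, fewer cells of a type and less RNA per cell cannot be told apart.

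Control regions are shown for the 4 ligands that stood farthest apart among those whose 2 kinds of arrays did not overlap. Fgf21 overlapped and is not shown. Bases upstream of the gene's start were taken from RefSeq (mouse build GRCm38.p6), where 8 of the 9 genes had an entry. Fgf5 and Fgf22 were higher and Fgf7 and Fgf18 were lower on the Cd109-low arrays. The windows are chr5:98253934-98254183 on the plus strand for Fgf5, chr10:79754859-79755050 on the plus strand for Fgf22, chr2:126034408-126034657 on the plus strand for Fgf7 and chr11:33147401-33147650 on the minus strand for Fgf18, each read 5′ to 3′ up to the base before the gene's annotated start, 192 bases for Fgf22 and 250 for the other 3. Capitals mark the letters GCGTG, the core of the element bound by the Ah receptor, on either strand.
Fgf5: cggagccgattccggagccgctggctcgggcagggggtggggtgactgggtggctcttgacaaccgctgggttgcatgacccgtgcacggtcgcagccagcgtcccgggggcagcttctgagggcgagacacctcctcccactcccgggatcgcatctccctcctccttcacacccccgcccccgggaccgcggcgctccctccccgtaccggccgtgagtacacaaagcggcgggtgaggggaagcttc
Fgf22: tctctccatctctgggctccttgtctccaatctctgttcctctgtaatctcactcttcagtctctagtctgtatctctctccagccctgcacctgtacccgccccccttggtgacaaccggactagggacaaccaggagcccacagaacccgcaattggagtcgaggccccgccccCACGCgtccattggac
Fgf7: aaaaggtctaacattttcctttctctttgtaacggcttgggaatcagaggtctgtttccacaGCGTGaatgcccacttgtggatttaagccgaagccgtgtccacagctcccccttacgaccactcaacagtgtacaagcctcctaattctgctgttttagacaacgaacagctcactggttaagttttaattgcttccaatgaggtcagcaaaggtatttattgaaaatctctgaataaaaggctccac
Fgf18: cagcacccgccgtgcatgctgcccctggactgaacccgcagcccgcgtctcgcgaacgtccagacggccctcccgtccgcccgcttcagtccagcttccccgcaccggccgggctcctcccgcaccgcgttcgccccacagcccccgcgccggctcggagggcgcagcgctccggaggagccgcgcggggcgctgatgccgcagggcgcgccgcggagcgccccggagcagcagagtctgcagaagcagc
GCGTG occurred 1 time in the Fgf22 window, as its reverse complement 16 bases before the start, and 1 time in the Fgf7 window, 188 bases before the start. Over all 32851 promoters in the reference, 28.2% of windows of 250 bases held these letters. The Fgf5 and Fgf18 windows did not hold them, and none of these 4 windows held TGACNNNGC (the antioxidant response element, 10.2% of all promoters), CTTTGAT (a LEF/TCF motif, 3.21%) or CCGGAAGT (an Ets motif, 2.88%) on either strand. Of the members not shown, Fgf21 and Fgfr3 held GCGTG, and Fgfr3 held TGACNNNGC 53 bases before its start. GC content was 70.8% in the Fgf5 window, 58.3% in that of Fgf22, 43.6% in that of Fgf7 and 77.2% in that of Fgf18.

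Fgf5, the signal that ends hair growth, had the widest range among the ligands measured on all 8 arrays. Its log2 signal was −5.37 and −4.75 in CD109+/+ skin after DMBA and −2.13 and 0.68 in CD109-/- skin after DMBA. Without DMBA, arrays labelled CD109+/+ read −4.60 and −0.07, and those labelled CD109-/- read −5.24 and −0.79. All 4 Cd109-low arrays (mean −0.58, SD 1.19, n = 4) lay above all 4 with a high one (mean −4.99, SD 0.37, n = 4), with a gap of 2.48 between the nearest arrays. After DMBA the level in CD109-/- skin was 20.2 times that in CD109+/+ skin, a log2 difference of 4.34 (SE 2.04) that did not pass with the labels as deposited (limma, adjusted p = 0.235) and did with the 2 untreated arrays exchanged (SE 0.89, adjusted p = 0.0317). Fgf5 was well above background on all 8 arrays, but its intensities on the Cd109-high ones were low (11.2, 19.5, 19.6 and 12.4). The size of the fold is therefore uncertain. With the normexp background the log2 difference was 2.42 (adjusted p = 0.287 as labelled, and adjusted p = 0.052 with the arrays exchanged). The 2 CD109-/- arrays after DMBA differed by more than the 2 CD109+/+ arrays, and the difference was 2.93 when CD109-/- DMBA replicate 2 was left out and 5.74 when replicate 1 was.

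Fgf22, the inner root sheath ligand, varied in the same order of groups. It was −3.15 and −2.68 in CD109+/+ skin and −1.98 and −0.47 in CD109-/- skin after DMBA. Untreated skin gave −2.63 and −0.18 on the arrays labelled CD109+/+ and −2.82 and −1.36 on those labelled CD109-/-. The Cd109-low arrays again lay above the others, by at least 0.65. The log2 difference between the genotypes after DMBA was 1.69 (SE 0.96, limma, adjusted p = 0.298), and it did not pass with the arrays exchanged either (SE 0.59, adjusted p = 0.0856). It was 0.94 when CD109-/- DMBA replicate 2 was left out, 2.45 when replicate 1 was, and 1.06 with the normexp background.

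Fgf7, the keratinocyte growth factor of the dermis, went the other way. It was 1.59 and 1.36 in CD109+/+ skin and 0.24 and −0.16 in CD109-/- skin after DMBA. Untreated arrays lay between these, at 1.13 and 0.54 under the label CD109+/+ and at 1.27 and 0.69 under the label CD109-/-. The level after DMBA was 2.70-fold lower in CD109-/- skin, a log2 change of −1.43 (SE 0.31) that had the smallest p of the 9 genes but did not pass with the labels as deposited (limma, adjusted p = 0.105) and passed with the arrays exchanged (adjusted p = 0.017). All 4 arrays with a high Cd109 signal lay above the other 4, with a gap of 0.45.

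Fgf10, a relative of Fgf7 from the mesenchyme, was spotted 10 times on each array. Its log2 signal was −0.97 and −1.11 in CD109+/+ skin and −2.00 and −1.96 in CD109-/- skin after DMBA. Untreated arrays read −0.73 and −1.34 under the label CD109+/+ and −0.44 and −1.55 under the label CD109-/-. Arrays of the 2 kinds of Cd109 signal did not overlap, although only 0.23 lay between the nearest of them. The log2 change in CD109-/- skin after DMBA was −0.94 (SE 0.40, limma, adjusted p = 0.205 as labelled, and adjusted p = 0.0241 with the arrays exchanged), a level 1.92-fold lower.

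Fgf18, the ligand of the resting follicle, was read by 2 probes. The brighter gave 0.24 and 0.74 in CD109+/+ skin and −1.11 and −1.08 in CD109-/- skin after DMBA. Without DMBA, 2.05 and −0.49 came from the arrays labelled CD109+/+ and 1.31 and −0.47 from those labelled CD109-/-. The arrays with a high Cd109 signal were above the others by at least 0.71, and the 2 untreated arrays among them were higher than the 2 DMBA arrays. The second probe had the same order of groups, with −0.61 and −0.14 in CD109+/+ skin and −2.34 and −2.12 in CD109-/- skin after DMBA. The log2 difference between the genotypes after DMBA was −1.58 on the brighter probe (SE 0.93, limma, adjusted p = 0.31) and −1.85 on the other (SE 0.99, adjusted p = 0.277), and with the arrays exchanged the brighter probe passed (adjusted p = 0.0263).

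Fgf21, the metabolic hormone, was dim throughout. It was well above background on 5 of 8 arrays: at −3.92 on CD109+/+ DMBA replicate 1, at −4.63 and −4.10 in CD109-/- skin after DMBA, at −4.29 on untreated replicate 2 under the label CD109+/+ and at −4.54 on untreated CD109-/- replicate 2. It was not well above background on the array labelled untreated CD109+/+ replicate 1 nor on that labelled untreated CD109-/- replicate 1. The single spot on CD109+/+ DMBA replicate 2 was marked as not uniform and was left out, so that the fit held 1 array of that group (its value would have been −1.48). Thus the 2 arrays without a measurable level were the 2 untreated arrays with a high Cd109 signal. With the arrays exchanged, the level in untreated CD109-/- skin was at least 2.41-fold higher. The p of that difference (limma, adjusted p = 0.00565) comes from fitting the 2 dim readings themselves, at intensities of 2.06 and 2.03. Their closeness is not a measure of how expression varies. In that arrangement, against the same 2 dim arrays, the level in CD109+/+ skin was at least 3.38-fold higher after DMBA than without it. That DMBA group held 1 array, which the fit assumes to vary like the other groups.

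**Figure D1:**
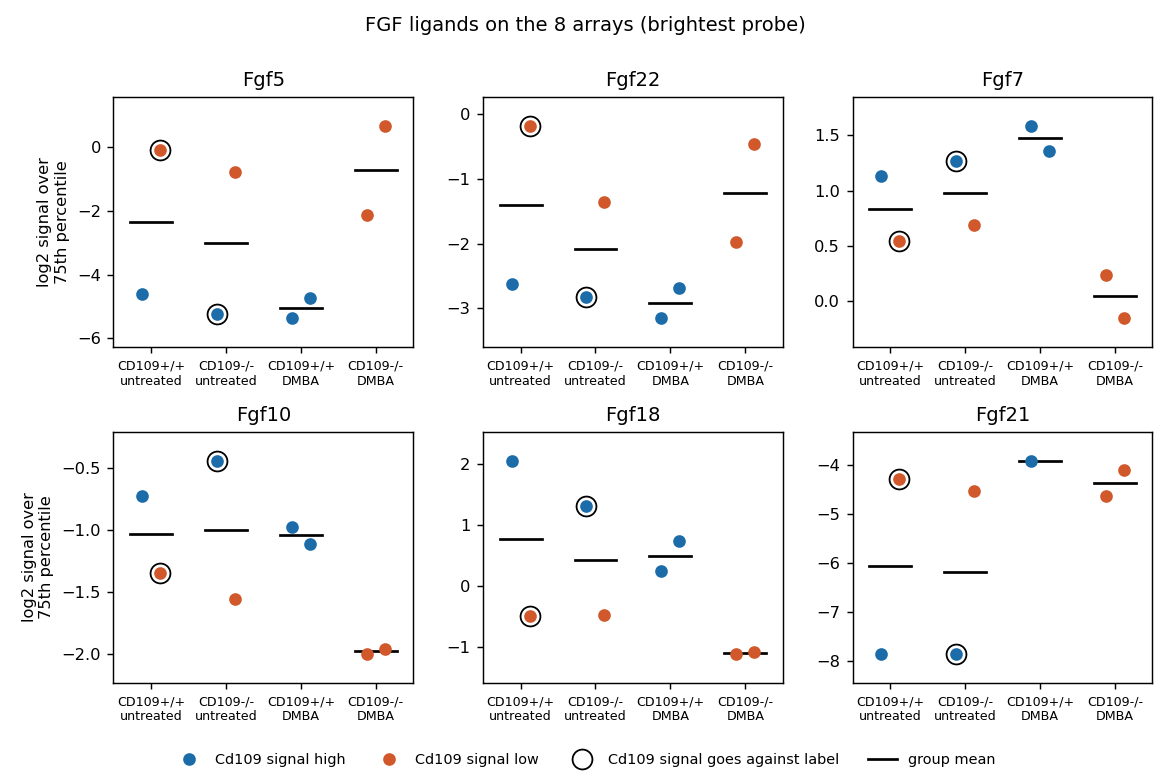
The 6 FGF ligands on each array, as log2 signal of the brightest probe relative to the 75th percentile of the array (vertical axis, scaled for each gene), by labelled group (horizontal axis, 2 arrays in each). Colour gives the Cd109 signal, a ring marks the 2 arrays whose Cd109 signal goes against the label, and lines are group means; Fgf5 and Fgf22 were higher and Fgf7, Fgf10 and Fgf18 lower on all 4 Cd109-low arrays, and Fgf21 lacks 1 CD109+/+ DMBA array and was not well above background on its 2 lowest arrays.

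Fgfr1, the dermal receptor, was read by 3 probes that did not move alike. The brightest gave 4.58 and 4.33 in CD109+/+ skin and 4.13 and 4.01 in CD109-/- skin after DMBA, and 4.60, 3.996, 4.89 and 4.38 on the untreated arrays labelled CD109+/+ replicates 1 and 2 and CD109-/- replicates 1 and 2. After DMBA the difference between the genotypes was −0.38 on this probe (SE 0.28, limma, adjusted p = 0.398) and −1.08 on the second (SE 0.36, adjusted p = 0.148). On the third it was 0.33 (SE 0.16, adjusted p = 0.252), with values of 0.13 and 0.08 against 0.44 and 0.43. With the arrays exchanged the second probe passed (limma, adjusted p = 0.0345). The brightest (adjusted p = 0.186) and the third (adjusted p = 0.122) did not. A direction for Fgfr1 is therefore given only for each probe. Which transcript forms the probes read was not analysed here.

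Fgfr2, the receptor of Fgf7, Fgf10 and Fgf22, gave −1.10 and −1.01 on its brighter probe in CD109+/+ skin after DMBA. It gave −0.47 and −0.52 in CD109-/- skin after DMBA. Untreated arrays read −0.55 and −0.32 under the label CD109+/+ and −0.66 and −0.35 under the label CD109-/-, so that the 2 CD109+/+ DMBA arrays were the lowest of the 8. The second probe, with 10 spots per array, also had these 2 arrays lowest, at −3.00 and −2.64 against −2.11 to −1.57 on the others. The log2 difference between the genotypes after DMBA was 0.56 on the brighter probe (SE 0.18, limma, adjusted p = 0.141) and 0.90 on the second (SE 0.24, adjusted p = 0.118), and with the arrays exchanged the brighter probe passed (adjusted p = 0.0315). As labelled, DMBA against untreated skin gave −0.62 in CD109+/+ skin (SE 0.18, limma, adjusted p = 0.313) and 0.01 in CD109-/- skin on the brighter probe. With the arrays exchanged these were −0.45 (SE 0.11, adjusted p = 0.0945) and −0.16 (SE 0.11, adjusted p = 0.497). The second probe then gave −0.83 and −0.32.

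Fgfr3, another receptor of the epithelium, gave 2.15 and 2.36 in CD109+/+ skin and 2.91 and 3.63 in CD109-/- skin after DMBA on its brighter probe. It gave 2.999 and 3.38 on the untreated arrays labelled CD109+/+ and 2.62 and 3.49 on those labelled CD109-/-. The arrays of the 2 kinds of Cd109 signal overlapped over both treatments, but within each treatment both arrays with a low signal lay above both with a high one. The log2 difference between the genotypes after DMBA was 1.01 on this probe (SE 0.38, limma, adjusted p = 0.172 as labelled and adjusted p = 0.0495 with the arrays exchanged). On the other it was 0.58 (SE 0.31, adjusted p = 0.279 as labelled), and it did not pass with the arrays exchanged (adjusted p = 0.0804). On the brighter probe it was 0.65 when CD109-/- DMBA replicate 2 was left out.

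**Figure D2:**
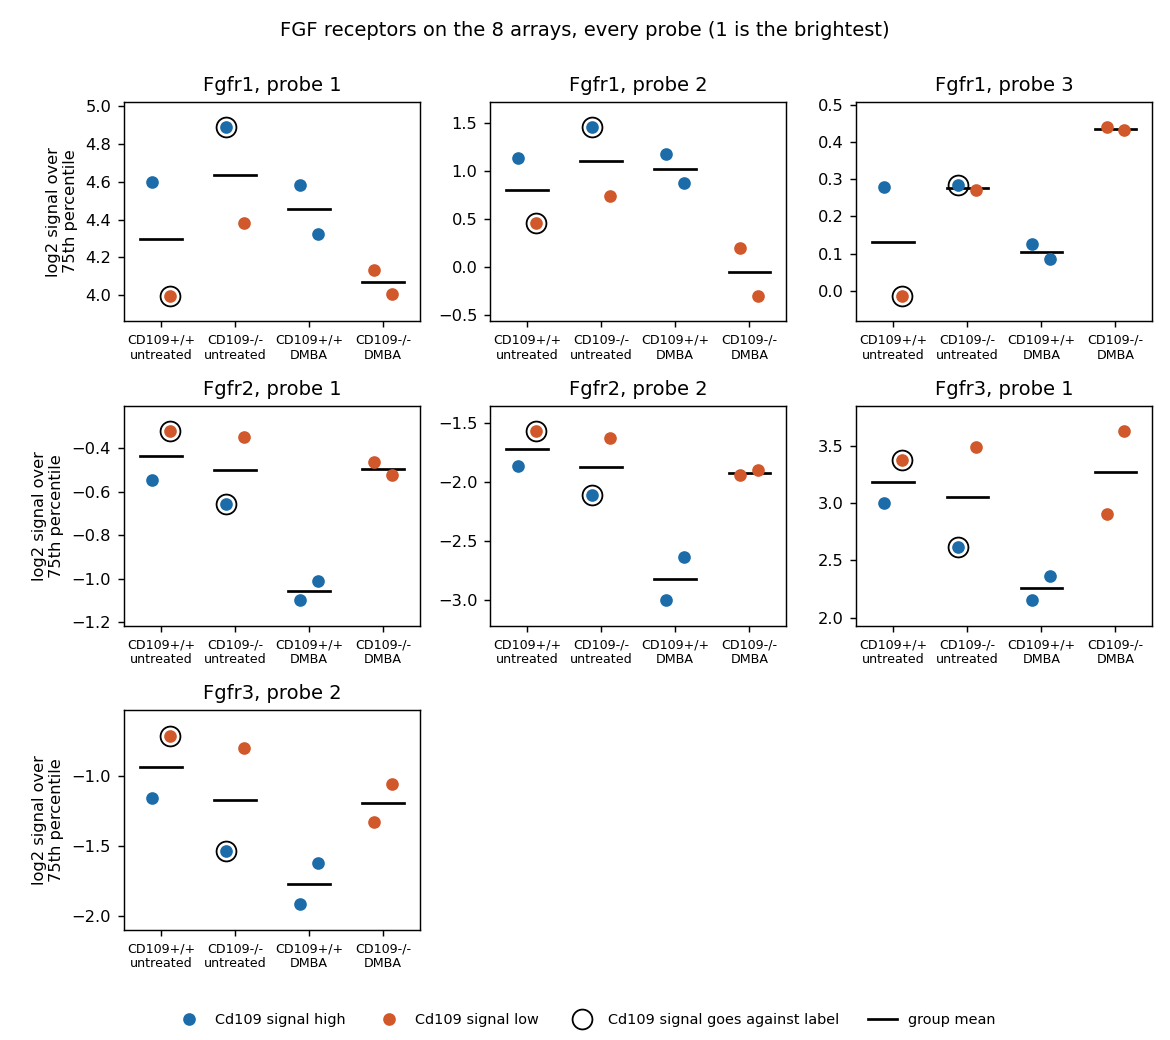
All 7 probes of Fgfr1, Fgfr2 and Fgfr3 on each array, as log2 signal relative to the 75th percentile of the array (vertical axis, scaled for each probe), by labelled group (horizontal axis); colours, rings and lines are as for the ligands. The third Fgfr1 probe was highest in CD109-/- skin after DMBA, where the other 2 were low, and both Fgfr2 probes were lowest in CD109+/+ skin after DMBA.

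The first question of the design was how the genotypes differ after DMBA, in arrays whose labels were not in doubt. As labelled, 0 of the 9 genes passed, each read from its brightest probe (limma, adjusted over 37038 probes, of which 0.0918% passed). Of the 9, 3 had an unadjusted p under 0.05, as did 9675 of the 37038 probes. Fgf5, Fgf22, Fgfr2 and Fgfr3 had positive and Fgf7, Fgf10, Fgf18, Fgf21 and Fgfr1 negative estimates, with a median log2 change of −0.38 against 0.06 over all probes tested. The exchange leaves these estimates as they are and changes the spread, which is shared with the untreated arrays. With it 6 of the 9 passed, against 19.9% of 37265 probes. Fgf5, Fgfr2 and Fgfr3 were higher in CD109-/- skin (3 of 9, against 11.4% of probes higher), and Fgf7, Fgf10 and Fgf18 lower (3 of 9, against 8.5% of probes lower). With the arrays exchanged and 1 array left out, the count of 6 became 0 when either CD109+/+ DMBA array was omitted and 1 (lower) when CD109-/- DMBA replicate 2 was. It was 3 (all lower) without any 1 of the 4 untreated arrays and 7 without CD109-/- DMBA replicate 1. It was also 0 when only the 4 DMBA arrays were fitted.

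The second question was how the genotypes differ in untreated skin. As labelled, 0 of the 9 passed (limma, 0.0054% of probes passed), and 0 had an unadjusted p under 0.05, against 804 of 37038 probes. Each group held 1 array with a high and 1 with a low Cd109 signal. With the arrays exchanged, 4 of the 9 passed, against 8.83% of probes (4.95% higher and 3.88% lower): Fgf5 by a log2 change of 4.49 (SE 0.89, adjusted p = 0.0391) and Fgf21 were higher, and Fgf18 by −2.16 (SE 0.28, adjusted p = 0.0142) and Fgf10 by −0.87 (SE 0.15, adjusted p = 0.0308) were lower in CD109-/- skin. The call of Fgf21 rests on 2 arrays without a measurable level. Left-out arrays gave counts of 0 to 6: 0 without the array labelled untreated CD109+/+ replicate 2, 1 without untreated CD109-/- replicate 2 or CD109+/+ DMBA replicate 1, and 2 without untreated CD109+/+ replicate 1, CD109+/+ DMBA replicate 2 or the array labelled untreated CD109-/- replicate 1. Fgf21 was not tested without CD109+/+ DMBA replicate 1, the only array of its group with a value, so it could not enter that count. Over both treatments, Fgf5, Fgf22 and Fgfr2 lay higher on every array with a low Cd109 signal. Fgf7, Fgf10 and Fgf18 lay higher on every array with a high one. Thus 6 of the 9 did not overlap on their brightest probe, against 27.2% of these probes (13% higher and 14.2% lower on the Cd109-low arrays). For Fgfr2 the gap was only 0.024, and its second probe overlapped, with −1.94 to −1.57 against −3.00 to −1.87. The median difference between arrays with a low and a high Cd109 signal was 0.41 over the 9 genes, −0.03 without Fgf21 and 0.03 over all probes. Within both treatments the difference had the same sign for the 8 genes other than Fgf21, which had only a lower bound in untreated skin and 1 CD109+/+ array after DMBA.

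**Figure D3:**
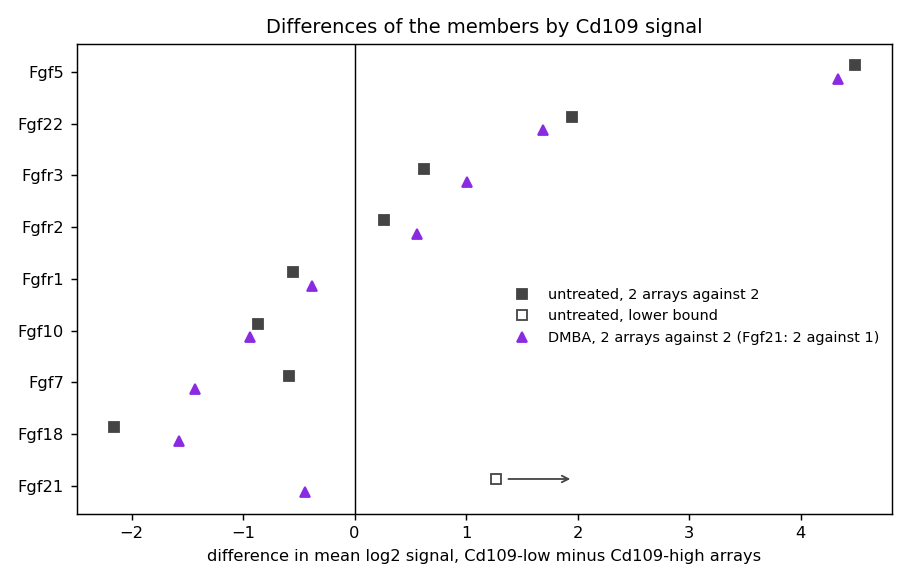
Difference in mean log2 signal between arrays with a low and with a high Cd109 signal (horizontal axis) for the 9 genes, brightest probe, in untreated skin (squares) and after DMBA (triangles). The 2 symbols lie on the same side of 0 for the 8 genes other than Fgf21, whose untreated Cd109-high arrays were not well above background, so that its open square with an arrow is a lower bound (at least 2.41-fold).

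The effect of DMBA was compared within each genotype. The DMBA arrays filled one row of the slide and the untreated arrays the other, and treatment therefore cannot be told apart from slide row. As labelled, 0 of the 9 genes passed in CD109+/+ skin (limma, 0.184% of probes passed, 1 of the 9 with an unadjusted p under 0.05) and 0 in CD109-/- skin (0% of probes, 1 of the 9). Of all 37038 probes, 4245 had an unadjusted p under 0.05 in CD109+/+ skin and 5286 in CD109-/- skin. Fgfr3 gave −0.93 (SE 0.38, limma, adjusted p = 0.437) and Fgf7 0.63 (SE 0.31, adjusted p = 0.514) in CD109+/+ skin. In CD109-/- skin Fgf7 gave −0.93 (SE 0.31, adjusted p = 0.304) and Fgf10 −0.98 (SE 0.40, adjusted p = 0.351). With 1 array left out, Fgf7 in CD109+/+ skin ran from 0.34 (omitting the untreated array labelled CD109+/+ replicate 2) to 0.93, and Fgf10 in CD109-/- skin from −1.54 (omitting untreated CD109-/- replicate 2) to −0.42 (omitting the untreated array labelled CD109-/- replicate 1). With the arrays exchanged, Fgf21 passed in CD109+/+ skin, the count of 1 of the 9 comparing with 3.53% of probes. For Fgf21 this set 1 DMBA array against 2 untreated arrays without a measurable level, so the call is not read as a result. Neutrophil markers moved in the same comparison: 4 of 7 rose (Cxcr2, Mmp8, S100a8 and S100a9), 2 of them also as labelled (Cxcr2 and Mmp8), and the summed level of the list was 8.16 to 8.81 on the 2 CD109+/+ DMBA arrays and 6.27 to 6.32 on the 2 untreated Cd109-high arrays. Their part in the result was not tested. Without CD109+/+ DMBA replicate 1, Fgf21 had no value in that group and was not tested. Without either untreated array with a high Cd109 signal, only 1 array was left on that side. Fgf18 gave −1.19 (SE 0.28, adjusted p = 0.0796) in CD109+/+ skin and −0.61 (SE 0.28, adjusted p = 0.327) in CD109-/- skin. In the latter 0 of the 9 passed (0.0134% of probes), and 2 of the 9 had an unadjusted p under 0.05, against 6513 of 37265 probes.

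Whether DMBA acted unequally in the 2 genotypes was tested as an interaction. It passed for 0 of the 9 genes as labelled (limma, 0% of probes passed, 1 of the 9 with an unadjusted p under 0.05) and for 0 with the arrays exchanged (0.0107% of probes, 2 of the 9 with an unadjusted p under 0.05). Over all probes, 5691 of 37038 as labelled and 7840 of 37265 with the arrays exchanged had an unadjusted p under 0.05. Fgf7 had the smallest p as labelled: both DMBA arrays lay above both untreated ones in CD109+/+ skin and below both in CD109-/- skin, an interaction of −1.57 (SE 0.44, adjusted p = 0.281), which was −0.84 with the arrays exchanged (SE 0.25, adjusted p = 0.164). No size is given for Fgf21, which had no measurable level on the 2 untreated Cd109-high arrays.

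The rest of the pathway was read from 4 lists. As labelled, 0 of the 57 tested genes of these lists passed in any of the 5 comparisons (limma), and 0 to 11 had an unadjusted p under 0.05. Over all 37038 probes, 0% to 0.184% passed in these comparisons, and 804 to 9675 had an unadjusted p under 0.05. Their median log2 change in CD109-/- skin after DMBA was 0.25 for the other ligands, −0.17 for the other receptors and co-receptors, 0.11 for the signal transducers and 0.26 for the feedback and target genes, against 0.06 over all probes. Of the other FGF ligands, 11 of 16 were tested. With the arrays exchanged, 1 gene rose and 2 fell in CD109-/- against CD109+/+ skin after DMBA (against 11.4% of probes higher and 8.5% lower), and 3 fell in untreated skin (against 3.88% lower). Over the 4 lists, 12 of 57 passed after DMBA, a share near the 19.9% of all probes. In untreated skin 7 of 57 passed, against 8.83% of probes. For DMBA in CD109+/+ skin 2 of 57 passed, a share near the 3.53% of all probes. Among the other ligands, the 1 that rose after DMBA was Fgf23, a hormone of phosphate balance, which is named because of its result. Fgf1, the ligand that binds all FGF receptors, had a log2 change of −0.996 after DMBA (SE 0.14, adjusted p = 0.0203) and of −1.33 in untreated skin (SE 0.14, adjusted p = 0.00912), and Fgf9 of −1.71 after DMBA (SE 0.31, adjusted p = 0.0264). Fgf12 and Fgf13, which act inside the cell on sodium channels and not on FGF receptors, passed between the genotypes in untreated skin, at −1.08 (SE 0.19, adjusted p = 0.0298) and −1.32 (SE 0.23, adjusted p = 0.0309), and after DMBA gave 0.25 and 0.84. DMBA against untreated CD109+/+ skin gave 2 calls of the 11, against 3.53% of probes: Fgf1 at −0.92 (SE 0.14, adjusted p = 0.0357) and Fgf12 at −1.34 (SE 0.19, adjusted p = 0.0289). Fgf15, Fgf17 and Fgf3 were not well above background on any array.

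Of the other receptors and co-receptors, 15 of 16 were tested, and with the arrays exchanged 1 rose (Flrt1) and 3 fell (Nrp1, Klb and Sdc2) in CD109-/- skin after DMBA, against 11.4% of probes higher and 8.5% lower. Flrt1, a membrane protein that binds FGF receptors, was higher by 2.61 (SE 0.36, adjusted p = 0.0194). Nrp1, a co-receptor of several growth factors, gave −1.39 (SE 0.24, adjusted p = 0.0256), and Klb, which encodes the β-Klotho that Fgf21 needs, −1.10 (SE 0.21, adjusted p = 0.0287). Kl, which encodes its relative α-Klotho, was not well above background on any array. Fgfr4 passed in untreated skin, at −0.95 (SE 0.13, adjusted p = 0.0152), with 0.11 after DMBA.

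The signal transducers between receptor and nucleus, 16 genes from Frs2 to Mapk3, passed in 0 cases under either arrangement (limma). Of all probes, 0.0918% passed between the genotypes after DMBA as labelled. With the arrays exchanged, 19.9% did after DMBA and 8.83% in untreated skin. After DMBA, 1 of the 16 as labelled and 2 with the arrays exchanged had an unadjusted p under 0.05, against 9675 of 37038 and 15452 of 37265 probes. Map2k1, a kinase of the MAP kinase cascade, gave −0.74 after DMBA with the arrays exchanged (SE 0.20, adjusted p = 0.0501), and Nras gave 0.46 in untreated skin (SE 0.12, adjusted p = 0.064). Of 17 feedback and target genes, 15 were tested. With the arrays exchanged, 4 rose (Dusp4, Egr1, Etv4 and Spred2) and 1 fell (Etv1) in CD109-/- skin after DMBA, against 11.4% of probes higher and 8.5% lower. In untreated skin 2 rose (Ccnd1 and Etv4) and 1 fell (Etv1), against 4.95% higher and 3.88% lower. Etv4, a transcription factor induced by FGF signals, gave 1.04 after DMBA (SE 0.26, adjusted p = 0.0421) and 1.99 in untreated skin (SE 0.26, adjusted p = 0.0142), whereas its relative Etv1 gave −1.13 (SE 0.16, adjusted p = 0.021) and −1.02 (SE 0.16, adjusted p = 0.0242). Egr1, an early response gene, passed after DMBA at 2.22 (SE 0.39, adjusted p = 0.0261), and the cyclin gene Ccnd1 in untreated skin at 1.41 (SE 0.15, adjusted p = 0.00845). The sprouty genes Spry1, Spry2 and Spry4, which damp FGF signals, overlapped between the 2 kinds of arrays, with differences of −0.06, −0.09 and 0.38.

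**Figure D4:**
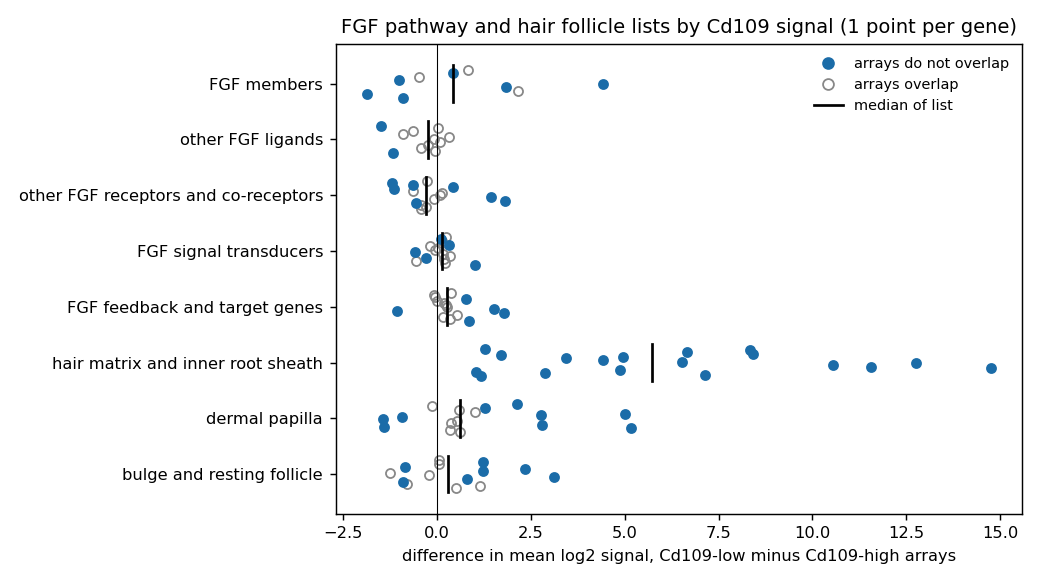
Difference in mean log2 signal between arrays with a low and with a high Cd109 signal (horizontal axis), 1 point for each tested gene of the FGF lists and of 3 hair follicle lists (vertical axis). Filled points are genes whose arrays did not overlap and the bars are list medians, which were 0.41 for the 9 FGF genes and 5.73 for the hair matrix and inner root sheath.

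The genes whose profiles over the arrays were nearest to those of the members were found by the root mean square difference of the centred log2 signals, among 16753 genes with a value on all 8 arrays. Nearest to Fgf5 were H2al1j (0.31), Capn8 (0.34) and H2al1m (0.35), where the spread of Fgf5 about its own mean was 2.34. On the Cd109-high arrays H2al1j read −8.15 to −6.81 and Capn8 −8.08 to −7.58. Krt25 was not well above background in that range (−8.18 to −6.69), so these likenesses rest in part on dim readings. Those nearest to Fgf22 were Kcnk16 (0.17), Mcoln3 (0.20) and Tnni1 (0.21), against a spread of 1.05. For Fgf7, Grk5 (0.07), Mmrn2 (0.09) and the endothelial gene Pecam1 (0.09) were nearest, against 0.57, and for Fgf10 they were Enpp5 (0.12), Myl9 (0.13) and Rtn4rl1 (0.14), against 0.52. Fgf18 was nearest to Grp (0.28) and to Calm5 and Myh11 (both 0.31), against 1.07. Over the 7 arrays with a value, Fgf21 was nearest to Nppb (0.53), Gjb6 (0.55) and Gprin1 (0.58), against 1.62. That spread includes the 2 arrays on which Fgf21 was not well above background, where Gprin1 read −7.55 and −7.62. Of the receptors, Fgfr1 was nearest to Cfhr2 (0.07), Pla2r1 (0.08) and Nhsl2 (0.09), against 0.30. Fgfr2 was nearest to Bmpr1a (0.05), Rac3 and Nedd9 (both 0.06), against 0.27, and Fgfr3 to Rai14 (0.10), Ankrd50 and Ptprf (both 0.11), against 0.50.

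Markers of other parts of the skin were read in the same way, against 13% of probes higher and 14.2% lower, without overlap, on the Cd109-low arrays. These lists too were chosen with earlier results of these data known, and their counts are a description. Of 8 endothelial markers, 7 were lower on every array with a low Cd109 signal (summed level 4.10 to 4.44 against 4.61 to 4.87), as were 7 of 8 adipocyte markers (7.81 to 8.57 against 8.90 to 9.55) and 6 of 8 macrophage markers (5.92 to 7.27 against 7.43 to 8.17). Of 8 fibroblast markers, 3 were lower and 5 overlapped (9.80 to 10.24 against 10.13 to 10.46). Melanocyte markers were higher in 7 of 8 cases, skeletal muscle markers lower in 6 of 8, and of 10 epidermal markers 2 were lower and 8 overlapped. In the dermal papilla list 6 of 16 were higher and 3 lower, and of the bulge and resting follicle list 5 of 14 were higher and 2 lower. Of 7 neutrophil markers 1 was higher and 6 overlapped. The endothelial, adipocyte, macrophage and muscle markers were lower where Fgf7, Fgf10 and Fgf18 were, and the melanocyte markers higher where Fgf5 and Fgf22 were, and their part in the results was not tested.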

How the data were processed

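RNA from whole skin was labelled with 1 dye and hybridized to 8 Agilent mouse arrays on 1 slide, scanned on 1 day. The deposited intensities, read by the authors with Agilent Feature Extraction 11.5.1.1, are background-subtracted and not normalized between arrays. Intensities in the deposited table of values are these, times 1 constant for each array. Here control spots and spots marked as outliers were left out, which left 223 of 55681 probes without a value on 1 or more arrays, and spots of a probe were averaged. Log2 intensities were set against the 75th percentile of each array. The number of arrays limits the precision. Probes were named through RefSeq accessions (28026 of 29796, 94.1%). Tests took probes well above background on both arrays of any 1 group. The groups were fitted in R 4.3.3 with limma 3.58.1, 1 mean per group, Benjamini-Hochberg adjusted over all probes tested, with a threshold of 0.05. A gene was read from its brightest tested probe. Where a group was too dim, a fold is a lower bound against the dimmest signal still well above background. The script was tested on simulated data. All 9 members are named, as are up to 4 genes of each pathway list that passed by smallest p (or, where none passed, the 2 of smallest p) and the 3 genes nearest in profile; Fgf23, Sdc2, Dusp4, Spred2, the neutrophil genes, Spry1, Spry2, Spry4, Krt25 and Shh were named after their values were seen. Members and lists were chosen with earlier results of these data known. Alternatives were quantile normalization, median centring, a normexp background with an offset of 50, other filters, fits of only the arrays compared, the replicate block, the methods' t-test, the deposited table, the mean of a gene's probes, the exchange and omission of the 2 arrays in doubt, and each array left out. The assays other than the arrays are not analysed here.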

Additional observations from a re-analysis of the deposited data

How the results depend on the processing

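As labelled, the count of FGF genes that passed stayed at 0 in each of the 5 comparisons with each array left out, without both arrays in doubt and under quantile normalization, median centring, the normexp background, both other filters, fits of only the arrays compared, the deposited value table, the mean of a gene's probes, the methods' t-test after adjustment and outlier spots kept (chosen after seeing the data). Without adjustment the methods' t-test gave 4 genes between the genotypes after DMBA, 1 for DMBA in CD109+/+ skin and 2 for the difference of the DMBA effects. The exchange of the 2 arrays gave 6 genes after DMBA, 4 in untreated skin and 1 for DMBA in CD109+/+ skin. With the replicate number as a block, 1 gene, Fgf7, passed between the genotypes after DMBA (adjusted p = 0.0462, against 0.017 to 0.424 over all alternatives), and the block changed no other count. The labels do not say that the numbers pair the arrays. Deviations of arrays with the same number correlated from −0.08 to 0.73 over the 6 pairs of groups, above 0.1 in 4 of the 6, with the highest value between the untreated groups, whose replicates 1 both had a high and whose replicates 2 both had a low Cd109 signal. A pairing is therefore not established, and whether the numbers mark something shared was not tested.

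The signs of the untreated genotype difference depended on the 2 arrays in doubt. With them exchanged, and then without both, Fgf5 turned to 4.49 and 3.81, Fgf7 to −0.59 and −0.45, Fgf10 to −0.87 and −0.83, Fgf21 to 3.44 and 3.32, Fgf22 to 1.95 and 1.27, Fgfr1 to −0.56 and −0.22, Fgfr2 to 0.27 and 0.20 and Fgfr3 to 0.62 and 0.49. With single arrays left out it ran from −2.94 to 1.59 for Fgf5, −0.16 to 0.44 for Fgf7, −0.52 to 0.59 for Fgf10, −1.62 to 0.92 for Fgf18, −1.91 to 1.66 for Fgf21, −1.91 to 0.54 for Fgf22, −0.22 to 0.088 for Fgfr2 and −0.57 to 0.30 for Fgfr3. DMBA in CD109+/+ skin ran from −1.56 to 0.98 for Fgf18.

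Other settings of the exchanged arrangement were added after seeing the data. Between the genotypes after DMBA the count of 6 was 3 with no filter, 0 with only the arrays compared and 0 to 7 with arrays left out. In untreated skin the count of 4 was 2 with the normexp background, 2 with no filter and 0 to 6 with arrays left out. For DMBA in CD109+/+ skin the count of 1 was 0 with the normexp background, 0 with only the arrays compared and 0 to 1 with arrays left out. The difference of the DMBA effects gave 1 with quantile normalization. In all of these the cause was not tested, apart from the fewer arrays fitted. Fgf21 is limited by signal over background and was measured on 5 arrays.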
